A study of Homo sapiens with 6 samples.

Results

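Readthrough R-loops were taken here as R-loop peaks that lay beyond the 3' end of a protein-coding gene, on the strand of that gene and outside every annotated gene. A peak was counted when its midpoint fell more than 1000 and up to 10000 bp downstream of the 3' end of a coding gene on the same strand and inside no gene record of any type. In the list of untreated cells 1449 of 10231 peaks met this rule, and in the list of treated cells 1462 of 11085 did, which made 2911 of 21316 peaks in both lists. The name "readthrough" describes the position and the strand, since no RNA was measured in these files and whether transcripts of the upstream gene reached the peaks was not tested.

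The study asked how a bulky alkyl group on guanine affects R-loops across the genome of HEK293T cells, a human embryonic kidney line, here of WT genotype. The cells were left untreated or were given 10 µM N2-heptynyl-dG for 3 h, a deoxyguanosine with an alkynyl chain on its N2 amine that cells build into their DNA. In both conditions unpaired guanines were labelled with 5 mM N3-kethoxal for 10 min, and the labelled DNA was sequenced with its strand kept (spKAS-seq). There were 2 samples per condition and 2 inputs, but 1 peak list per condition, attached to replicate 1, so no spread between replicates could be given and the depth behind each peak is unknown. Differences between the lists therefore have no replicate check, and the 95% Wilson intervals below cover counting error only.

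An R-loop forms when RNA pairs with its template strand and leaves the other DNA strand single. RNA polymerase II runs on past the poly(A) site after the transcript has been cleaved, and it is released further downstream once the exonuclease XRN2 has degraded the RNA that is still attached. R-loops beyond 3' ends are therefore known from many transcribed genes, and they have been linked to pausing of the polymerase and to termination.

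The sequences below come from some of the widest readthrough R-loops and show what the displaced strand looked like where it held most guanine. Each is the 200-bp window with the highest count of G minus C on the peak strand, inside the stretch that both lists covered for a shared R-loop, or inside the peak for an R-loop of 1 list. The windows were chosen for their guanines, so their G content is not a finding. They are given 5' to 3' from GRCh37, with runs of at least 3 G in capitals. On the minus strand they lay at chr1:23884170-23884369 for ID3, chr11:122924160-122924359 for HSPA8, chr17:48210359-48210558 for PPP1R9B and chr17:79476177-79476376 for ACTG1. On the plus strand they lay at chr19:36130619-36130818 for RBM42, chr1:113008381-113008580 for CTTNBP2NL and chr17:30381507-30381706 for LRRC37B. The first 4 come from R-loops found in both lists, RBM42 from an R-loop of the untreated list only, and CTTNBP2NL and LRRC37B from R-loops of the treated list only.
ID3: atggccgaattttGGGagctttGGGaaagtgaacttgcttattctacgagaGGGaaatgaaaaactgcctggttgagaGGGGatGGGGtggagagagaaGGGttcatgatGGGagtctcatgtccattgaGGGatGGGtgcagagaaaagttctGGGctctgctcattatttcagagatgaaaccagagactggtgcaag
HSPA8: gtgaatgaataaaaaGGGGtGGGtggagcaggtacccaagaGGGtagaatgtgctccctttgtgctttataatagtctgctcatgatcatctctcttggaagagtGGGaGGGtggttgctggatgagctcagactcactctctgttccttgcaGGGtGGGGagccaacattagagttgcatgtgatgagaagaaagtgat
PPP1R9B: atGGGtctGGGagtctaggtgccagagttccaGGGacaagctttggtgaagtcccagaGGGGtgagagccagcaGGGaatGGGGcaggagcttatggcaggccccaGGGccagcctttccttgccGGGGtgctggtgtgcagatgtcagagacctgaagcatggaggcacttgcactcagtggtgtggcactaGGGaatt
ACTG1: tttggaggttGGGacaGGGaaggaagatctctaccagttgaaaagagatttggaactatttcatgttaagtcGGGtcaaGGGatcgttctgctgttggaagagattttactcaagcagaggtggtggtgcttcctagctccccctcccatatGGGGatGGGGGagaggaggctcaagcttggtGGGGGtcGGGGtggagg
RBM42: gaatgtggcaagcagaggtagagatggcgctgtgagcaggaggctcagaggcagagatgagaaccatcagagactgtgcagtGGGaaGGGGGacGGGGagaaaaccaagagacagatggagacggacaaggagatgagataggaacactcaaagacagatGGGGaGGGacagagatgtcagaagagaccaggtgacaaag
CTTNBP2NL: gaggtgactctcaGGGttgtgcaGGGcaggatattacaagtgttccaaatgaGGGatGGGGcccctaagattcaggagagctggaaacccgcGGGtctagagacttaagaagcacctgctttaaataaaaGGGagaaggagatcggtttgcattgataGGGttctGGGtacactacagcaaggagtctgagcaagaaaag
LRRC37B: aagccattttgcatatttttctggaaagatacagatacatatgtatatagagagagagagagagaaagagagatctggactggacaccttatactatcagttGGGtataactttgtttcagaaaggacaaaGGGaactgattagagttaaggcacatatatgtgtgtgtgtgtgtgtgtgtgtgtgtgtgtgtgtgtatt

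The windows differed widely in their G runs. The ID3 window held 10 runs of at least 3 G and the PPP1R9B window 9, whereas RBM42 had 5 and LRRC37B, taken up in part by a long GT repeat, had 2. None of the 7 windows held the G-quadruplex pattern of 4 such runs spaced by 1 to 7 bases. Over the full site the pattern stood on the peak strand for HSPA8, PPP1R9B and CTTNBP2NL, but not for ID3, ACTG1, RBM42 or LRRC37B. The ID3 and ACTG1 windows began 48 bp and 63 bp past the gene end, and the HSPA8 window began 3838 bp past it, the farthest of the 7.

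Readthrough R-loops were nearly as many after treatment as before. There were 13 more of them in the treated list, 0.897% above the untreated count, while all other peaks together numbered 841 more, or 9.58%. Peaks inside gene records were 10.7% more numerous and intergenic peaks away from coding 3' ends 9.09% more, whereas peaks at the 3' end itself, with a midpoint from 100 bp upstream to 1000 bp downstream of it, went from 784 to 801. As a share of the list, readthrough R-loops made up 14.2% (13.5 to 14.9) without treatment and 13.2% (12.6 to 13.8) with it. These 2 intervals overlapped, but their overlap does not measure the difference of -0.974 percentage points, for which no interval was computed. The difference in count stayed between -8 and 26 under the other ways of choosing peaks.

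Joining same-strand peaks of both lists that overlapped gave 1870 readthrough R-loop sites downstream of 1773 genes. Of these genes 1676 had 1 site and 97 had 2, and no gene had more. A total of 1188 sites (63.5%) held a peak in both lists, 339 were found in the untreated list only and 343 in the treated list only. The sets found in 1 list were thus of almost equal size.

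The peaks crowded close to the gene and thinned out with distance, and the lists gave almost the same curve. The median midpoint lay 1946 bp past the 3' end in untreated and 1974 bp in treated cells, and 75.2% and 73.7% of the peaks lay within 3000 bp. Per Mb of sequence free of gene records on that strand, there were 65.8 untreated and 64.4 treated peaks from 1000 to 2000 bp past the gene. The density dropped to 12.7 and 14.1 per Mb from 3000 to 4000 bp, and to 2.45 and 2.21 per Mb in the last 1000 bp of the window. On the opposite strand no such slope was seen, since the density stayed between 1.12 and 2.04 peaks per Mb in every step.

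**Figure D1:**
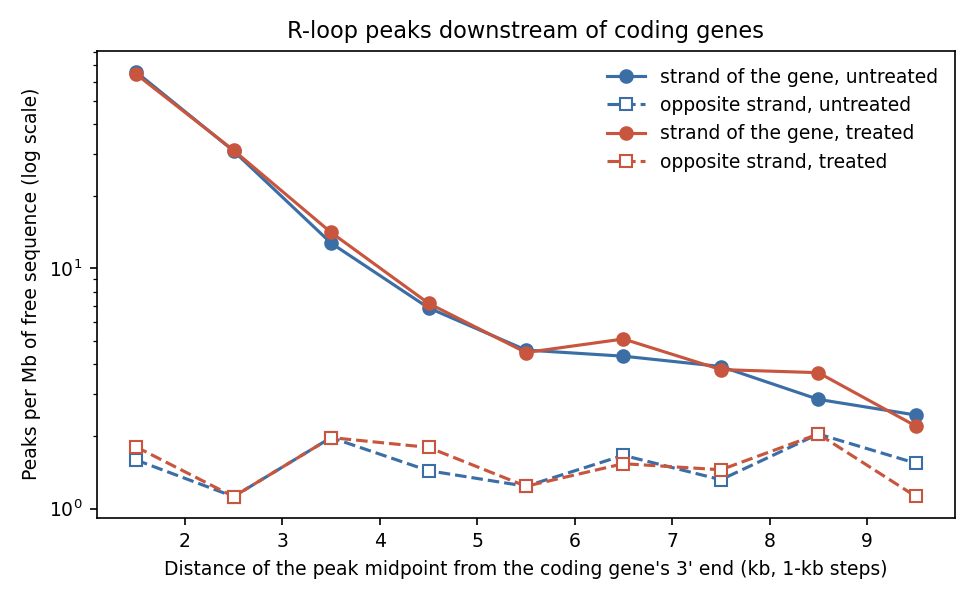
Peaks per Mb of free sequence (log scale) against distance of the midpoint from the coding gene's 3' end in 1-kb steps, for the strand of the gene (filled points) and the opposite strand (open squares) in both lists. The gene strand falls from 65.8 and 64.4 to 2.45 and 2.21 peaks per Mb, and the opposite strand stays between 1.12 and 2.04.

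Over the whole window the gene strand held 16.8 peaks per Mb without and 17.0 with treatment, 10.9 and 10.8 times the density on the opposite strand of the same zone (113 and 115 peaks). The strand is part of the rule, so this contrast describes the choice of peaks and has no test. Upstream of coding genes, over the same distances, the gene strand held 1.11 and 1.24 peaks per Mb and the opposite strand 1.50 in both lists. The free sequence of the 3' end window held 37.4 and 36.9 peaks per Mb, more than the readthrough zone as a whole but fewer than its first 1000 bp. This density counted only 445 and 439 of the 784 and 801 3' end peaks. Peaks that met both rules were classed as readthrough R-loops. It is thus no measure of all R-loops at the 3' end. Free sequence elsewhere held 0.494 and 0.543 peaks per Mb.

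Most readthrough R-loops had nothing annotated between them and the gene. No gene record lay between the 3' end and the peak for 87.7% of the untreated and 87.2% of the treated peaks, and for 84.8% and 85.8% the whole peak, not only its midpoint, was clear of gene records. The next gene downstream ran on the same strand in 57.7% and 57.9% of cases. A start site of an annotated transcript, on either strand, lay within 2000 bp of 354 untreated and 357 treated peaks, 24.4% in both lists, so that initiation at a neighbouring gene cannot be told apart from readthrough for these. In each list 1 readthrough R-loop overlapped an opposite-strand peak. The same share over all peaks was not taken, so this count is not read as a trait of readthrough R-loops.

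Readthrough R-loops were wide, as were peaks at the 3' end. The median was 1000 bp with and without treatment, and 16.4% of the untreated and 16.0% of the treated ones reached 2000 bp. Peaks at the 3' end had the same median of 1000 bp in both lists, and 10.7% and 10.4% of them reached 2000 bp. Peaks inside gene records had a median of 750 bp, with 4.31% and 3.66% reaching 2000 bp, and intergenic peaks away from coding 3' ends had a median of 500 bp. The widths narrowed with distance from the gene, from a mean of 1307 bp in the first 1000 bp of the window to 978 bp beyond 5000 bp in the untreated list, and from 1289 to 897 bp in the treated list.

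Ranked by the summed width of their untreated and treated peaks, the 8 widest sites found in both lists lay behind genes for chaperones, ribosomal proteins and actin, among others. Behind HSPA8, which encodes the constitutive heat shock cognate chaperone, the peak was 3250 bp wide in untreated and 4500 bp in treated cells, and the joined site ended 5003 bp past the gene. HSP90AA1, the gene of the inducible cytosolic Hsp90 chaperone, had 2 untreated peaks and 1 treated peak of 3250 bp in a zone from 1063 to 4812 bp past its end. The HSP90AA1 site lay 331 bp from a start site of RN7SL472P on the same strand. Behind RPS12, a gene of the small ribosomal subunit, both lists held the same 3500-bp peak with the same borders, starting 379 bp past the gene.

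RPL10A and RPL7, both genes of the large ribosomal subunit, had sites of 4000 and 3750 bp in all. The peak behind RPL10A was 3750 bp wide untreated and 3500 bp treated, and RPL7 had 1 untreated peak of 3000 bp where the treated list had 2. Behind PPP1R9B, which encodes the protein phosphatase 1 partner spinophilin, the peaks were 3500 and 3250 bp wide and began inside the gene record. At ACTG1, the gene of gamma-actin, and ID3, an inhibitor of helix-loop-helix transcription factors, the peak also crossed the gene end, and the untreated peak had its midpoint too near the gene for the rule, so that only the treated peak was counted as readthrough. The untreated ID3 peak was 4500 bp wide and the treated one 3500 bp.

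**Figure D2:**
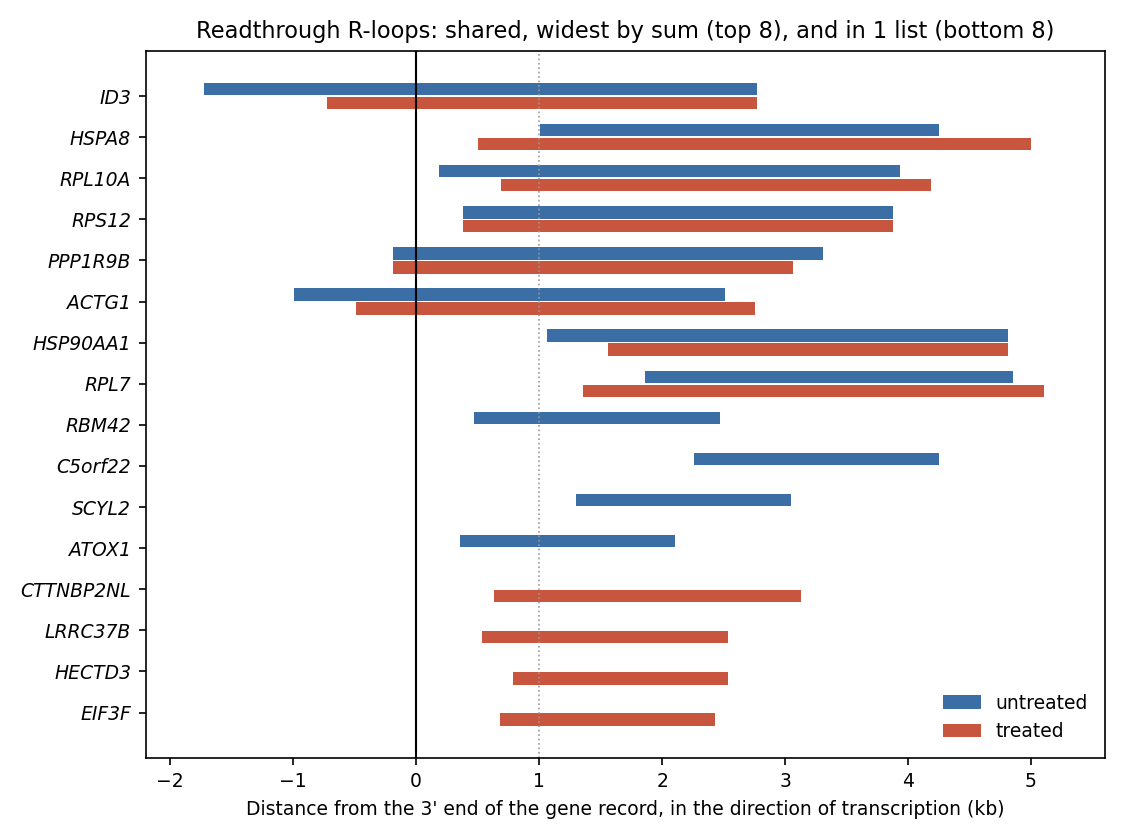
Extent of the peaks (bars) along the distance from the gene's 3' end in kb, in the direction of transcription, for the 8 shared readthrough R-loops with the largest sum of untreated and treated widths and 4 of the widest of each list alone; the dotted line marks 1 kb, and 1 bar spans both peaks of the untreated HSP90AA1 and treated RPL7 sites. The shared ones reach up to 5106 bp past the gene, and those of 1 list are at most 2500 bp wide.

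Sites found in 1 list were narrower. The widest of the untreated list only were 2000 bp, behind RBM42, which encodes an RNA-binding protein, and behind C5orf22. The C5orf22 site lay 265 bp from a start site on the same strand. Sites of 1750 bp came next, among them those behind SCYL2, a pseudokinase of clathrin-coated vesicles, and ATOX1, the copper chaperone. In the treated list only, the widest was 2500 bp behind CTTNBP2NL, and it lay 1206 bp from a start site of WNT2B on the same strand. LRRC37B had a treated peak of 2000 bp, and HECTD3, the gene of a ubiquitin ligase, and EIF3F, a subunit of translation initiation factor eIF3, had treated peaks of 1750 bp.

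Readthrough R-loops were shared between the lists about as often as R-loops in general in untreated cells, and more often in treated cells. Of the untreated ones 1110 of 1449 (76.6%, 74.4 to 78.7) overlapped a same-strand peak of the treated list, where the share over all untreated peaks was 74.6%. Of the treated ones 1119 of 1462 (76.5%, 74.3 to 78.6) overlapped an untreated peak, where the share over all treated peaks was 69.2%. Width moved with these shares: in the untreated list 53.1% of the 500-bp readthrough R-loops were shared, 67.7% of those of 1000 bp and 99.2% of those of 2000 bp and over. At the same mix of widths, the other peaks of the list would have been shared in 83.5% of cases without and 80.2% with treatment, a difference for readthrough R-loops of -6.93 and -3.66 percentage points.

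**Figure D3:**
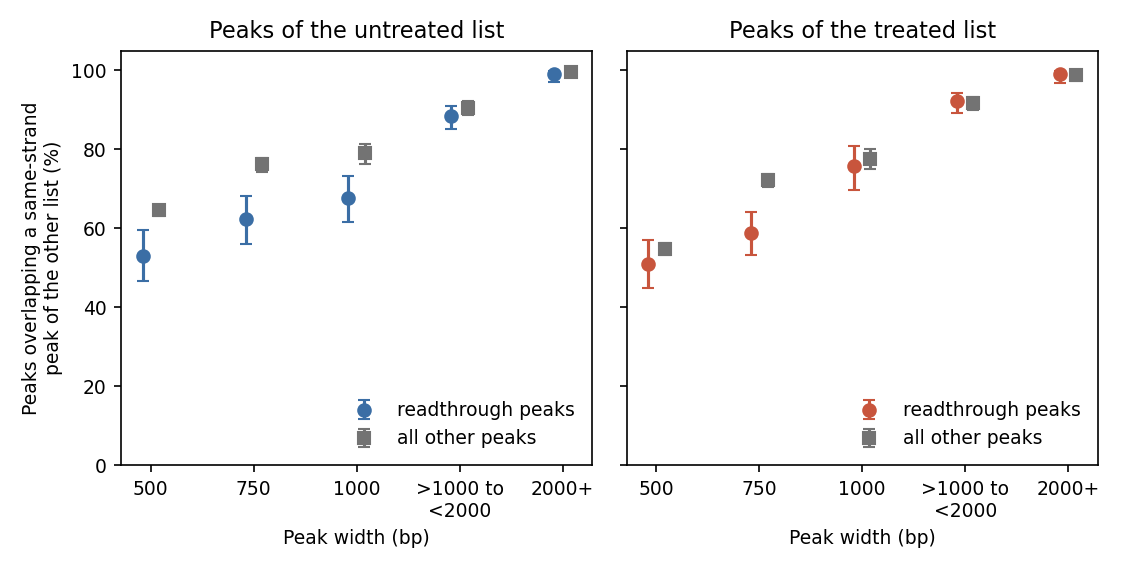
Share of peaks that overlapped a same-strand peak of the other list (%), by peak width in bp, for readthrough R-loops (coloured circles) and all other peaks (grey squares), with 95% Wilson intervals. Readthrough R-loops of 750 bp lie below other peaks of that width in both lists (62.3% against 76.2% untreated, 58.9% against 72.2% treated), and the groups meet at 98.98% to 99.52% at 2000 bp and over.

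Borders matched less often than positions did. The same start and end were found in both lists for 241 readthrough R-loops, 16.6% of the untreated and 16.5% of the treated ones, against 32.2% and 29.7% of all peaks. Width was not allowed for in these shares. In the untreated list, 41.7% of the other peaks of 500 bp had identical borders, against 19.0% of readthrough R-loops. For widths over 1000 and under 2000 bp these shares were 22.3% and 20.0%. Among the 1154 pairs of 1 untreated and 1 treated peak, 387 had the wider peak after treatment and 428 before it, and the width was equal in 339. The midpoint of the treated peak lay further downstream in 440 of the 1061 pairs whose untreated peak met the rule, and less far in 339, with a mean shift of 24.3 bp. The mean shift was 42.8 bp on the plus strand and 5.46 bp on the minus strand, and it was 45.7 bp for pairs whose untreated peak lay in the 3' end window and 8.95 bp for all pairs whose untreated peak was no readthrough R-loop.

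Genes that carried a readthrough R-loop more often had an R-loop at their start as well. Among genes with a readthrough R-loop, 32.2% (29.8 to 34.7) had a same-strand peak from 1000 bp upstream to 2000 bp downstream of their start in untreated cells, against 15.0% (14.3 to 15.6) of the coding genes that had at least 1000 bp of free sequence downstream but no readthrough R-loop. In treated cells these shares were 35.6% (33.2 to 38.2) and 16.8% (16.1 to 17.5). Peaks in the gene body followed the same order, at 14.5% against 7.59% untreated and 14.7% against 7.94% treated. Peaks at the 3' end went the other way, with 2.29% against 4.14% untreated and 2.51% against 3.96% treated. Peaks were classed by midpoint, so a peak across the gene end could not count both as a 3' end peak and as a readthrough R-loop. These shares at the 3' end therefore depend on the rule, and no conclusion is drawn from their order. For 56.2% of the untreated and 53.1% of the treated genes, the readthrough R-loop was the only same-strand peak along the gene. Of the genes without a readthrough R-loop, 76.6% and 74.9% had no same-strand peak along the gene.

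Read from the gene, 20.8% (19.1 to 22.6) of the coding genes with a start peak had a readthrough R-loop in untreated cells and 8.82% (8.29 to 9.38) of those without one. The treated list gave 20.6% (19.0 to 22.3) and 8.61% (8.08 to 9.17). Transcript levels were not measured here, so the part of expression in this difference was not tested. The poly(A) signals AATAAA or ATTAAA stood in the last 50 bp of the gene in 78.9% (76.7 to 81.0) of the genes with an untreated readthrough R-loop and in 73.8% (73.0 to 74.6) of the genes without. Genes of a single exon were rarer among those with a readthrough R-loop, at 2.09% against 5.96% in the untreated list.

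The gene groups differed in how many members carried a readthrough R-loop. Over all 12341 coding genes with free sequence downstream, 13.8% had one in either list. Among cytosolic ribosomal protein genes it was 26 of 51 (51.0%), among translation factors 19 of 33 (57.6%) and among hnRNP, SR and FET RNA-binding proteins 13 of 27 (48.1%). Heat shock protein genes had 8 of 18 (44.4%) and genes of actin, tubulin and the cytoskeleton 6 of 17 (35.3%). The replication-dependent histone genes listed had 4 of 39 (10.3%) and immediate early genes 3 of 26 (11.5%), near the share over all coding genes for groups of this size. The lists are descriptions with no test, and the members of a list are not replicates.

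**Figure D4:**
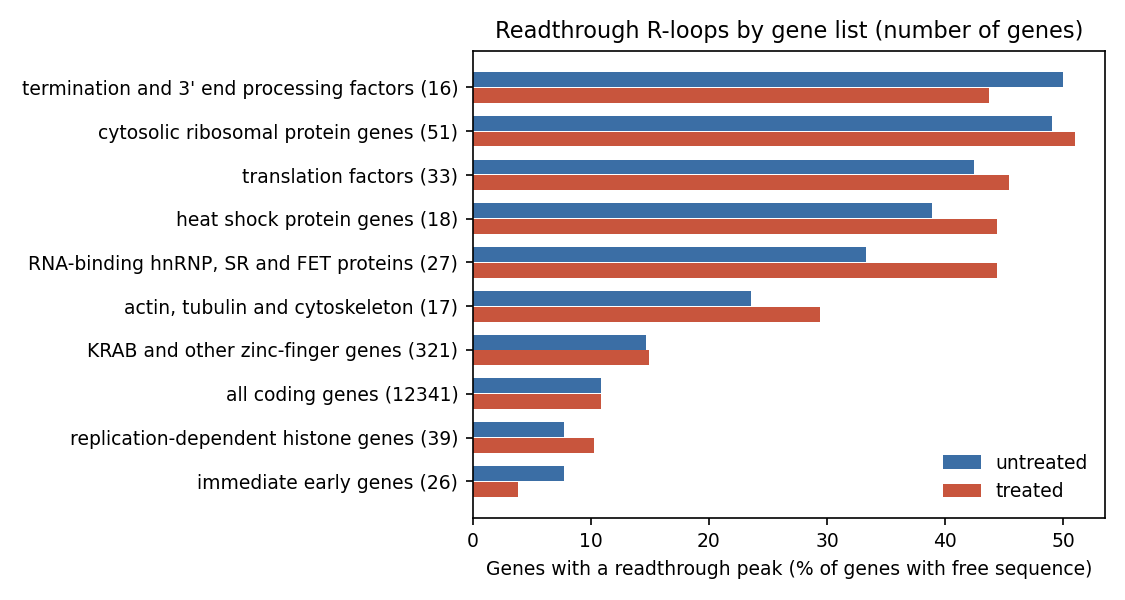
Share of genes with a readthrough R-loop (%, of genes with free sequence downstream) in the untreated and treated lists, for gene groups and all coding genes, with the number of genes in brackets. Ribosomal protein genes reach 49.0% and 51.0%, all coding genes 10.8% and 10.9%, and immediate early genes 7.69% and 3.85%.

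The sites behind ribosomal protein genes were, but for 1, found in both lists. Counting ribosomal protein genes with less free sequence too, 28 genes carried 29 sites. Of these sites 28 held a peak in both lists and 1, the nearer of a pair behind RPL34, in the treated list only. Over all coding genes 63.5% of the sites were shared. The ribosomal protein gene sites had a median width of 2250 bp against 1250 bp over all coding genes, and 26 of the 29 lay within 3000 bp of the gene. A site spans the joined peaks of both lists, so joining can widen a shared site. Of all readthrough R-loops of 2000 bp and over, 99.16% untreated and 99.15% treated were shared. Whether these sites were shared more often than others of their width was not tested. Behind RPL8 both lists held a 2500-bp peak, whereas RPL24 and RPL7L1 had peaks of 750 bp or less.

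Some of the factors that end transcription had readthrough R-loops behind their own genes. Of the 16 termination and 3' end processing genes with free sequence, 8 carried one and the others none, where the share over all coding genes was 13.8%. Behind XRN2, the exonuclease that removes the downstream RNA, the peaks were 750 and 1000 bp wide and lay around 2162 bp. RPRD2, a binder of the polymerase's C-terminal domain, had the widest of this group, at 2250 and 2000 bp.

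The cleavage factor genes CPSF6 and CPSF7, and RBBP6, a further part of the cleavage machinery, also had a site in both lists. CSTF1, a subunit of the cleavage stimulation factor, had a 750-bp peak in the untreated list only. NUDT21, the small subunit of cleavage factor I, had a shared site at 1123 bp and a second, 500 bp wide, in the untreated list only. In all, 7 of the 9 sites of these genes were shared, 2 were of the untreated list and none of the treated list, where 63.5% of the sites of all coding genes were shared.

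Heat shock genes carried 8 sites with a median width of 2125 bp, and 7 of them (87.5%) were shared. Over all coding genes 63.5% of the sites were shared, at a median width of 1250 bp, and width was not allowed for. Here too, joining the peaks of both lists can widen a shared site. HSPA4, which encodes an Hsp110-type nucleotide exchange factor, had the same 2250-bp peak in both lists, starting 42 bp past the gene, and its GC skew of 0.272 was far above the median over readthrough R-loops. HSPB1, the gene of the small heat shock protein Hsp27, had a 750-bp peak in the treated list only. Among RNA-binding proteins SFPQ, a paraspeckle and splicing factor, had peaks of 3000 and 3250 bp, and HNRNPK and HNRNPF had sites of 2500 bp. SRSF3, SRSF7 and both sites of HNRNPD were in the treated list only. With these 4 the group had 10 of 14 sites shared (71.4%), near the 63.5% over all coding genes.

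Translation factor genes had 14 shared sites of 20 (70%), near the 63.5% over all coding genes, with 5 in the treated list only and 1 in the untreated list only. EEF2, the elongation factor that moves the ribosome along, had peaks of 2750 and 2500 bp centred 3460 bp past its end, and EIF3D had peaks of 2250 and 2500 bp. The EEF2 site lay 1348 bp from a start site of DAPK3 on the same strand. EIF3CL had peaks of 2750 and 3000 bp, but it is a near copy of EIF3C, and its peaks are uncertain, as Bowtie2 at its default setting places a read that matches both copies equally well at only one of them. Of the zinc finger genes, mostly repressors of the KRAB family, 62 of 321 (19.3%) carried a readthrough R-loop, ZNF282 and ZNF92 with the widest sites at 3000 bp. Counting zinc finger genes with less free sequence too, 64 of them had 67 sites, of which 40 (59.7%) were shared, near the 63.5% over all coding genes, with 11 found in untreated cells only and 16 found in treated cells only.

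The immediate early and histone genes held few sites, and some of these lay beside other genes. Of the immediate early genes, which respond to stimuli within minutes, KLF10 had a 1000-bp peak in both lists, while ATF3 and IER5 had peaks of 1250 and 1000 bp in the untreated list only. The ATF3 peak lay 1729 bp from a start site of GARIN4 on the same strand. The 4 sites of the histone genes listed had a median distance of 7488 bp from the gene, and 3 of the 4 lay beyond 5000 bp. A further histone gene, HIST2H2AA3, was not in the gene list and is not counted here. Its site lay 1426 bp past the gene and held peaks of 1500 bp untreated and 1750 bp treated. The site behind H2BC14 was centred 9108 bp past the gene but 630 bp from the start of H4C11 on the same strand, and the H4C9 site lay 30 bp from the start of the microRNA gene MIR3143.

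Some of the 97 genes with 2 sites show how such pairs were arranged. CSNK1A1, the gene of casein kinase 1 alpha, had adjoining sites at 1899 and 3899 bp, 2250 and 1750 bp wide and both found in both lists. SF1, the branch point binding protein of splicing, had a shared site of 2000 bp at 2103 bp and a second, 750 bp wide, in the treated list only. That second site lay 654 bp from a start site of PYGM on the same strand. INCENP, a subunit of the chromosomal passenger complex, had a shared 2250-bp site and a 500-bp one behind it in the treated list only. For SPG7 and DESI1 one of the sites lay at the start of another gene on the same strand, 38 bp from the RPL13 start and 10 bp from the PMM1 start.

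Sites reached both ends of the window. Among the nearest were sites with midpoints just over 1000 bp past the genes of MCM6, a subunit of the replicative helicase, RING1, a Polycomb ubiquitin ligase, and GFUS, an enzyme of GDP-fucose synthesis. The MCM6 and GFUS sites lay 1066 and 1719 bp from same-strand start sites of LCT and PYCR3. By the midpoint of the joined site, the farthest lay 9950 bp past APRT, a purine salvage enzyme, 9964 bp past CREBZF and 9984 bp past RER1, a retrieval receptor of the Golgi. The CREBZF and RER1 sites lay 189 and 1629 bp from opposite-strand start sites of TMEM126A and PEX10. All 6 of the nearest and farthest sites named here were found in both lists. KBTBD6, an adaptor of a cullin-RING ubiquitin ligase and one of the genes the study worked on, had the same 1000-bp peak in both lists, at chr13:41699251-41700250 on the minus strand, 1955 bp past its 3' end.

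Readthrough R-loops had the lowest GC content of the classes of peak compared here. Their median GC content was 48.7% without and 49.2% with treatment, against 52.7% and 53.4% at the 3' end, 55.6% and 56.9% in other intergenic peaks and 58.4% and 59.6% inside genes. Windows of 1000 bp laid over the free sequence downstream of coding genes had a median of 43.8% (83083 windows), and readthrough R-loops measured over 1000 bp had 48.3% and 48.8%. Hence the peaks were richer in GC than the zone they lay in and poorer than peaks elsewhere. Sequence could be read for 1446 of the 1449 untreated and 1459 of the 1462 treated peaks.

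CpG sites were sparse in them too. The median ratio of observed to expected CpG was 0.278 and 0.280, against 0.690 and 0.710 for peaks inside genes, 0.681 and 0.700 for other intergenic peaks and 0.215 over the free sequence. Beyond 5000 bp, the 70 untreated and 67 treated peaks within 2000 bp of a start site had ratios of 0.685 and 0.699, as high as peaks inside genes. The 3' end peaks were close to readthrough R-loops, at 0.319 and 0.331.

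**Figure D5:**
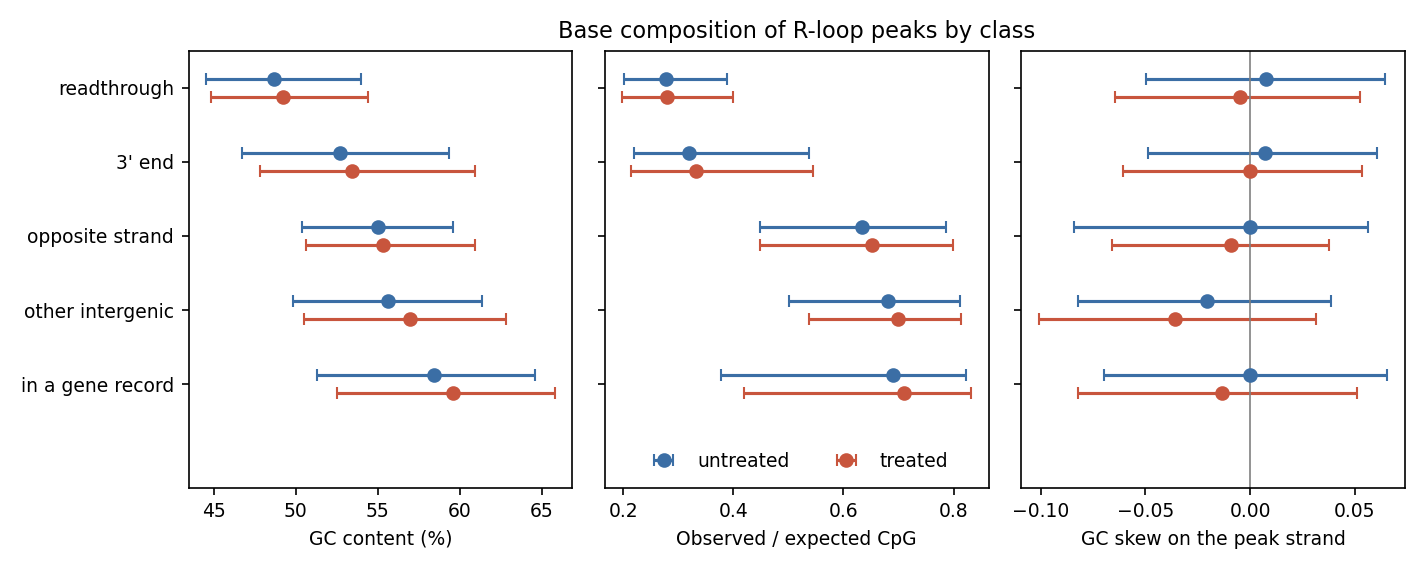
GC content (%), observed over expected CpG and GC skew on the peak strand (points, medians; bars, quartiles over peaks) for readthrough R-loops, 3' end peaks, opposite-strand peaks of the same zone, other intergenic peaks and peaks in gene records. Readthrough R-loops have the lowest median GC content (48.7% and 49.2%) and CpG ratio (0.278 and 0.280) of the classes, and median skews near 0.

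G and C were nearly balanced on the displaced strand. The GC skew, the difference of G and C over their sum on the peak strand, had a median of 0.00785 without and -0.00458 with treatment, and 52.6% and 47.9% of the peaks had a skew above 0. The difference in the sign of the medians is small beside the quartiles, which ran from -0.0496 to 0.0644 and from -0.0646 to 0.0524. A G-quadruplex pattern stood on the peak strand of 12.2% and 12.1% of the peaks and on the other strand of 14.6% and 16.0%. Over equal windows of 1000 bp it was found in 11.1% and 10.4% of readthrough R-loops on their strand, against 7.06% of the free windows and 18.8% and 22.6% of the 3' end peaks.

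Readthrough R-loops that were shared differed from those of 1 list. The shared ones had a mean width of 1375 bp untreated and 1357 bp treated, and those not shared 839 and 770 bp. The G-quadruplex pattern was found on the peak strand of 14.1% and 14.2% of the shared ones and 6.19% and 4.96% of the others, though a wider peak has more room for it. At the genes of the unshared sites the other list had a peak at the gene's start for 28.9% of the sites of the untreated list and 30.0% of those of the treated list. Over all coding genes with free sequence downstream, 18.86% had a start peak in the treated list and 16.85% in the untreated list. For genes with a readthrough R-loop in the list itself, these shares were 35.65% and 32.24%. A same-strand peak of the other list stood within 1000 bp of 10.6% and 12.0% of the unshared sites, and within 5000 bp of 19.2% and 18.7%.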

How the data were processed

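The R-loops were mapped by spKAS-seq in HEK293T cells. Per the submitters' notes and the study's methods, the authors used Trim Galore to trim reads, Bowtie2 for alignment to hg19 and Picard for removing duplicates. R-loops were then called from 2 replicates by a published procedure, and versions are not given in the sources used here. Each deposited list has 4 columns of coordinates (chromosome, start, end, strand) and no height, fold or significance value, so only presence and extent were compared and changes in R-loop intensity were not analysed here.

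Peaks were classed by midpoint against GENCODE release 44 lifted to GRCh37, with Python 3.11.15 and numpy 2.4.6. Sequences were read with pysam 0.24.0. Peaks of both lists were shared when they overlapped by at least 1 bp on 1 strand, and overlapping members were joined into sites. Each site was named by the nearest coding gene whose 3' end lay more than 1000 bp upstream on its strand. For 44 untreated and 36 treated readthrough R-loops another coding 3' end lay within 1000 bp upstream. The gene named for these is therefore not the nearest one. Density was taken over sequence free of gene records, sampled every 50 bp. The 3' end of a gene was that of its gene record. The classification and the overlap were tested on simulated data and returned the known answers. No test between conditions was possible with 1 list each.

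Named were the 8 widest shared sites, ranked by the sum of the untreated and treated peak widths, the 4 widest of each list alone, 5 genes with 2 sites, up to 3 genes of each gene list, genes the study worked on, and the 3 nearest and 3 farthest sites by site midpoint, with ties taken in order of chromosome and start. Other members of the gene lists named in the text were chosen after their values were seen. The readthrough peaks and the gene lists were chosen with earlier results of these data known. The alternatives were other distance windows, stricter and looser rules on gene records, peaks near start sites left out, a width minimum and other overlaps, with 1 more added after seeing the data. Some of the named genes and their sequence windows are not reported here.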

Additional observations from a re-analysis of the deposited data

How the results depend on the processing

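Of 88 recomputed values 64 stayed within the 95% counting interval of the value reported (for counts, within 1.5 times) and 24 moved further. The count of readthrough R-loops per opposite-strand peak of the same zone, 12.8 untreated and 12.7 treated, became 19.8 and 19.3 up to 5000 bp, 9.30 and 8.84 up to 20000 bp, 16.6 and 15.5 with the whole peak outside gene records, 9.30 and 9.07 with only coding records barring a peak, 43.8 and 39.5 without peaks within 2000 bp of a start site, and 18.8 and 19.6 for peaks of at least 750 bp. Median GC content became 47.8% and 48.5% with the whole peak outside gene records, 47.5% and 48.1% without peaks near start sites, 49.2% untreated up to 20000 bp and 49.7% treated with only coding records. The median width became 1250 bp treated for peaks of at least 750 bp. The shared percentage became 74.1% in both lists without peaks near start sites, 74.3% treated with whole peaks outside gene records, and 67.2% and 67.0% with a reciprocal overlap of 50%. Leaving out peaks within 1000 bp of another coding gene end, an alternative chosen after seeing the data, gave 12.4 readthrough R-loops per opposite-strand peak in both lists. No paired analysis was possible because there was 1 list per condition, and for the same reason no replicate could be left out. The depth behind the lists is unknown, and how near an absent peak came to the authors' threshold was not tested.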

Other observations

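Readthrough R-loops were spread over the chromosomes unevenly. Of the coding genes with free sequence downstream, 22.1% had a site in either list on chromosome 22 (60 of 271 genes), 18.5% on chromosome 16 and 17.6% on chromosome 5, against 9.33% on chromosome 18 (18 of 193) and 9.98% on chromosome 11 (80 of 802). Chromosome 19 held 104 untreated and 119 treated readthrough R-loops, and chromosome 11 held 73 and 61. No test was made of these differences.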
